A study of Mus musculus with 26 samples.

Results

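The presynaptic release machinery is described here through 29 mouse genes, grouped by the function of their proteins. All 29 were found among the 55487 genes of the count tables, and all 29 were among the 18050 genes with enough counts to be tested. They comprise 10 genes for proteins of the synaptic vesicle, 8 for SNAREs and the proteins that work on them, 7 for scaffolds and priming factors of the active zone, 2 neurexins and 2 pore subunits of presynaptic calcium channels.

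A synaptic vesicle releases its transmitter when SNARE proteins on the vesicle (synaptobrevins, the Vamp genes) zip together with SNAREs on the plasma membrane (syntaxin-1 and SNAP-25). Synaptotagmins sense the calcium that enters through Cav2 channels, complexins hold the SNARE bundle ready, and RIM, Munc13, ELKS, Bassoon and Piccolo hold vesicle and channel together at the active zone. In the cerebral cortex the fast paralogs Syt2 and Vamp1 are known mostly from parvalbumin interneurons and from terminals of subcortical origin, whereas Syt1 and Vamp2 are used by most neurons.

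The RNA came from the frontal cortex of adolescent littermates. The HET mice carried an Adnp frameshift on 1 allele, the WT mice carried none, and each genotype had 7 libraries. Adnp encodes a zinc-finger chromatin protein. The series holds 26 samples in all, and the 2 deposited ATAC-seq peak lists, 1 per genotype, were used for the promoters. Strain, sex and exact age were not stated in the labels. The labels give the HET libraries 1 to 4 as total RNA and the other 10 libraries as polyA RNA, although a poly-T selection is described for all. The labels name no batches and do not say which mice shared a litter, so p-values measure the spread between these 7 mice per genotype.

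Adnp mRNA ran from 5.34 to 8.68 CPM (counts scaled by library size) in HET and from 5.67 to 7.84 in WT, and since a frameshift can leave the mRNA level as it is, these values do not test the genotype labels. Library totals ran from 32814841 to 48291175 counts, and the 29 genes took between 1.26% and 1.80% of them. Markers of cortical excitatory neurons were present in every library, but their level differed within both genotypes. HET 1, HET 4 and WT 4 stood lowest, and they were also the 3 libraries in which the release genes stood lowest. Summed over 8 excitatory markers, led in WT by Camk2a, the level was 927 to 5330 CPM in HET and 2359 to 6402 CPM in WT. Over 8 markers of thalamic neurons, led in WT by Rora, it was 213 to 1902 CPM in HET and 155 to 677 CPM in WT. No marker was at 0 in every library. In bulk tissue, fewer cells of a type and less RNA per cell cannot be told apart.

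RefSeq promoter windows (GRCm38.p6, from 250 bases before a transcript start to 50 after it) were found for 22 of the 29 genes, with 31 windows in all. Those below belong to Stx1a, Rims1, Syt1 and Syn1, which had the smallest p-values among the genes with a window, and to the family members Syt2 and Syn2. Unc13a was added after its motifs were seen. Each reads 5′ to 3′ on the strand of the gene, and capitals mark GC boxes (GGGCGG), the left and right arms of the RE1 element of the neuronal repressor REST (TTCAGCACC and GGACAG), the cAMP response element (TGACGTCA) and TATA boxes (TATAAA), on either strand.
Stx1a, chr5:135023232-135023531 plus strand: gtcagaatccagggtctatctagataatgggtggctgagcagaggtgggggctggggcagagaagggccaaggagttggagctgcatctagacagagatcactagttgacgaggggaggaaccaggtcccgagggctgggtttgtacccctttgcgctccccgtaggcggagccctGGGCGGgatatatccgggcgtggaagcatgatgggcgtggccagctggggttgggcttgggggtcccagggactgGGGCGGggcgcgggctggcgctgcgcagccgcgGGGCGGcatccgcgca
Rims1, chr1:22806109-22806408 minus strand: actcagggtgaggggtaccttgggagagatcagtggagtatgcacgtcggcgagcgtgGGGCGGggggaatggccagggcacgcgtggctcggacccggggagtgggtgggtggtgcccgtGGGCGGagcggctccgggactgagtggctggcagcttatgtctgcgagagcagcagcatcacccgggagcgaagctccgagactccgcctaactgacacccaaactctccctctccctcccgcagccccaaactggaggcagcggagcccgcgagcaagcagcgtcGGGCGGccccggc
Syt1, chr10:109010926-109011225 minus strand: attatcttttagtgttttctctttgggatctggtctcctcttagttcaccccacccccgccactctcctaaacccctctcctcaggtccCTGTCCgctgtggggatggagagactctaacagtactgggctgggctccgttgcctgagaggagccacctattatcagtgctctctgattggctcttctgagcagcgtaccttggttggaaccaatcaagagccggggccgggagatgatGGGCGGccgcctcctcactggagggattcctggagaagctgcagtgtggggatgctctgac
Syt2, chr1:134646362-134646661 plus strand: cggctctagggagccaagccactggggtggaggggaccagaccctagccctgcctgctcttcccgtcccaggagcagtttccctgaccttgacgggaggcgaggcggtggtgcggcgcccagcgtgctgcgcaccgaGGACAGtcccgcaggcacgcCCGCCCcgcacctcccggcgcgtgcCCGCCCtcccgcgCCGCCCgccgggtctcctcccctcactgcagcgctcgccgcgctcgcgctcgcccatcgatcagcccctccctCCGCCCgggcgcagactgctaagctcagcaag
Syn1, chrX:20920869-20921168 minus strand: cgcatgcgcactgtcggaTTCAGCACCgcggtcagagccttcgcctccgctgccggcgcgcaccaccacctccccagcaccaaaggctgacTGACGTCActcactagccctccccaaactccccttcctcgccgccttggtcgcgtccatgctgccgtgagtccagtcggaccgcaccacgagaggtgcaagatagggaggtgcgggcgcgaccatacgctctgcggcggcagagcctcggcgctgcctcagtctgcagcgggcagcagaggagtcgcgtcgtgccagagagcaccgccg
Syn2, chr6:115134652-115134951 plus strand: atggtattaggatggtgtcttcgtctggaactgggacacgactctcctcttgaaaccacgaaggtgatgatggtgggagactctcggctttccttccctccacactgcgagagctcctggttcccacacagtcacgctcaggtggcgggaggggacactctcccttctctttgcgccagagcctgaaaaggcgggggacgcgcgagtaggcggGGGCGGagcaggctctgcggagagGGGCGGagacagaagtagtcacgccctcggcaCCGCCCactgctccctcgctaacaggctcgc
Unc13a, chr8:71671708-71672007 minus strand: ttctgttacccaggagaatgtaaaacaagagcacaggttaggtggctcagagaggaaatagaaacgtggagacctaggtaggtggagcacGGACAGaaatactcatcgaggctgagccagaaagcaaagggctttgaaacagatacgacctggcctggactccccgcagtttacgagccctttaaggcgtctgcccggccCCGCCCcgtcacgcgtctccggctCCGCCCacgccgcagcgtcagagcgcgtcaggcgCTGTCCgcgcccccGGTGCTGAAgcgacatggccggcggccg

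The windows of the release genes were rich in G and C, with a median of 61.3% against 52.7% over all 32851 windows in the table, and held a median of 18 CpG pairs against 7. A GC box stood in 18 of the 31 windows (58.1%), against 35.7% of all windows. The left arm of RE1 was found in 2 of the 31 windows, those of Syn1 and Unc13a, and in 0.371% of all windows. The right arm of RE1, a shorter word, was in 19.4% of the 31 and in 22.2% of all. Syn1 alone held the whole cAMP response element, which 1.79% of all windows hold. TATA boxes were in 2 of the 31 windows, both of Sv2b, against 13.6% of all. These are matches of letters and were not tested as binding sites.

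Scaled to exon length, the 29 genes spanned a range from abundant SNAREs to rare paralogs. That length counts all annotated exon bases of a gene, from 2189 for Cplx1 to 22746 for Unc13b, and not those of 1 transcript. The levels per kb and their order depend on this choice. In WT the highest level was that of Snap25, at 377 ± 82.9 CPM per kb of exon (SD, n = 7), followed by Vamp2 at 331 ± 30.8, Cplx2 at 304 ± 32.6 and Cplx1 at 302 ± 26.6. The lowest were Syn3 at 1.20 ± 0.168, Unc13b at 2.45 ± 0.625 and Syt2 at 10.3 ± 1.60 CPM per kb. Vesicle proteins and SNAREs filled the upper ranks, and the large scaffolds and channel subunits the lower ones, with Bsn at 34.5 ± 11.0, Pclo at 11.8 ± 3.14, Cacna1a at 13.8 ± 2.86 and Cacna1b at 13.0 ± 1.95 CPM per kb. Of the 28 steps between neighbours in this order, 20 were within the larger SD of the pair. That SD is the spread between mice, and both genes were read in the same libraries. A step within it can therefore still hold in every library, as for Syn1, which stood above Syt1 in all 7 WT libraries. The steps larger than the SD lay below Cplx1, Syp, Napb, Syt7, Rims1, Erc2, Syt2 and Unc13b. The labels do not say that the counting used strand, and the file headers set it to be ignored. Of the exon bases of Syp, 16.8% lie under another gene, and of those of Syn3 14.1%, so that these levels miss reads that were left out as ambiguous.

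**Figure D1:**
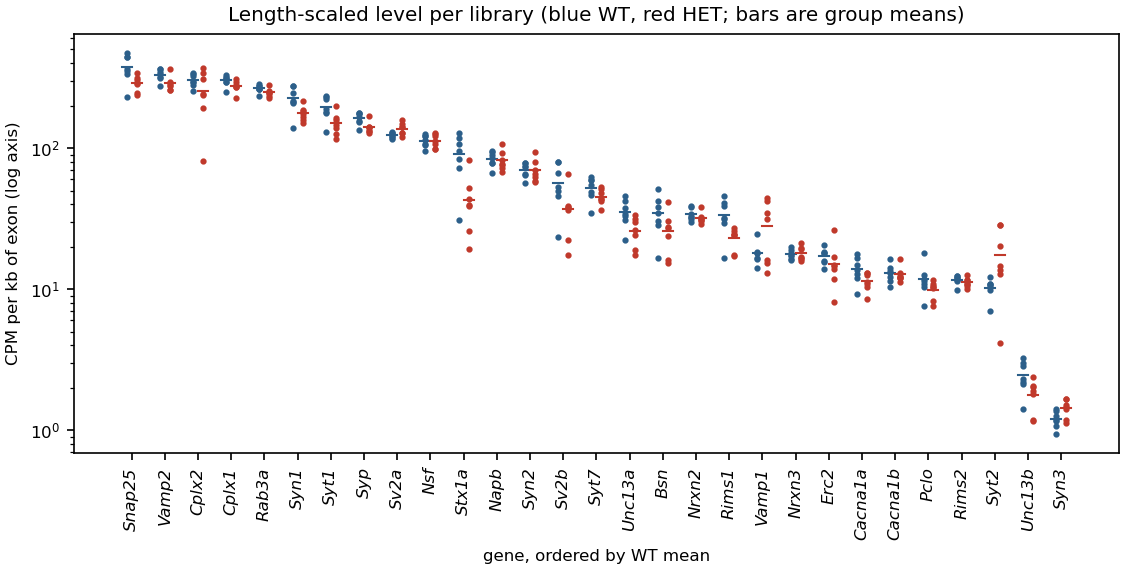
Level of each of the 29 genes per library, in CPM per kb of exon on a log axis, with genes ordered by their WT mean. Blue points are WT libraries and red points HET libraries, and short bars are the group means. Snap25 stands highest and Syn3 lowest, and the HET points of Stx1a and Rims1 sit mostly below those of WT.

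The main comparison asked whether release genes differ between HET and WT cortex. None of the 29 reached an adjusted p under 0.05 when edgeR's quasi-likelihood test was run over all 18050 genes, of which 0.97% passed in either direction. Values leaned to lower levels in HET. Their log2 fold change was below 0 for 23 of the 29 genes, where 46.7% of all genes tested were below 0, and its median was -0.20 against 0.02 over all genes. At an unadjusted p under 0.05, 11 of the 29 were lower in HET and 4 higher, against 10.4% and 11.8% of all genes. The 29 genes were chosen with earlier results of these data known and were read in the same libraries. These counts are therefore descriptions and not separate observations. DESeq2 called 2 of the 29, both lower, against 4.11% of all genes lower and 4.28% higher. With limma-voom and sample weights 7 were called lower and 2 higher, against 5.29% and 5.16% of all genes.

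The lean differed in size between libraries, and WT 4 showed it too. Set against the WT mean of each gene, the median over the 29 genes was -0.36 on the log2 scale in HET 1, -0.31 in HET 4 and -0.02 in HET 6. In the other HET libraries it lay between -0.22 and -0.17. In WT it ran from -0.33 in WT 4 to 0.19 in WT 2. WT 4 was the lowest of all 14 libraries for 11 of the 29 genes, whereas WT 1 was the highest for 10 and HET 6 for 7. HET and WT values overlapped for all 29 genes. Over all genes tested, every HET library lay below every WT library for 0.283% and above every WT library for 0.432%.

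**Figure D2:**
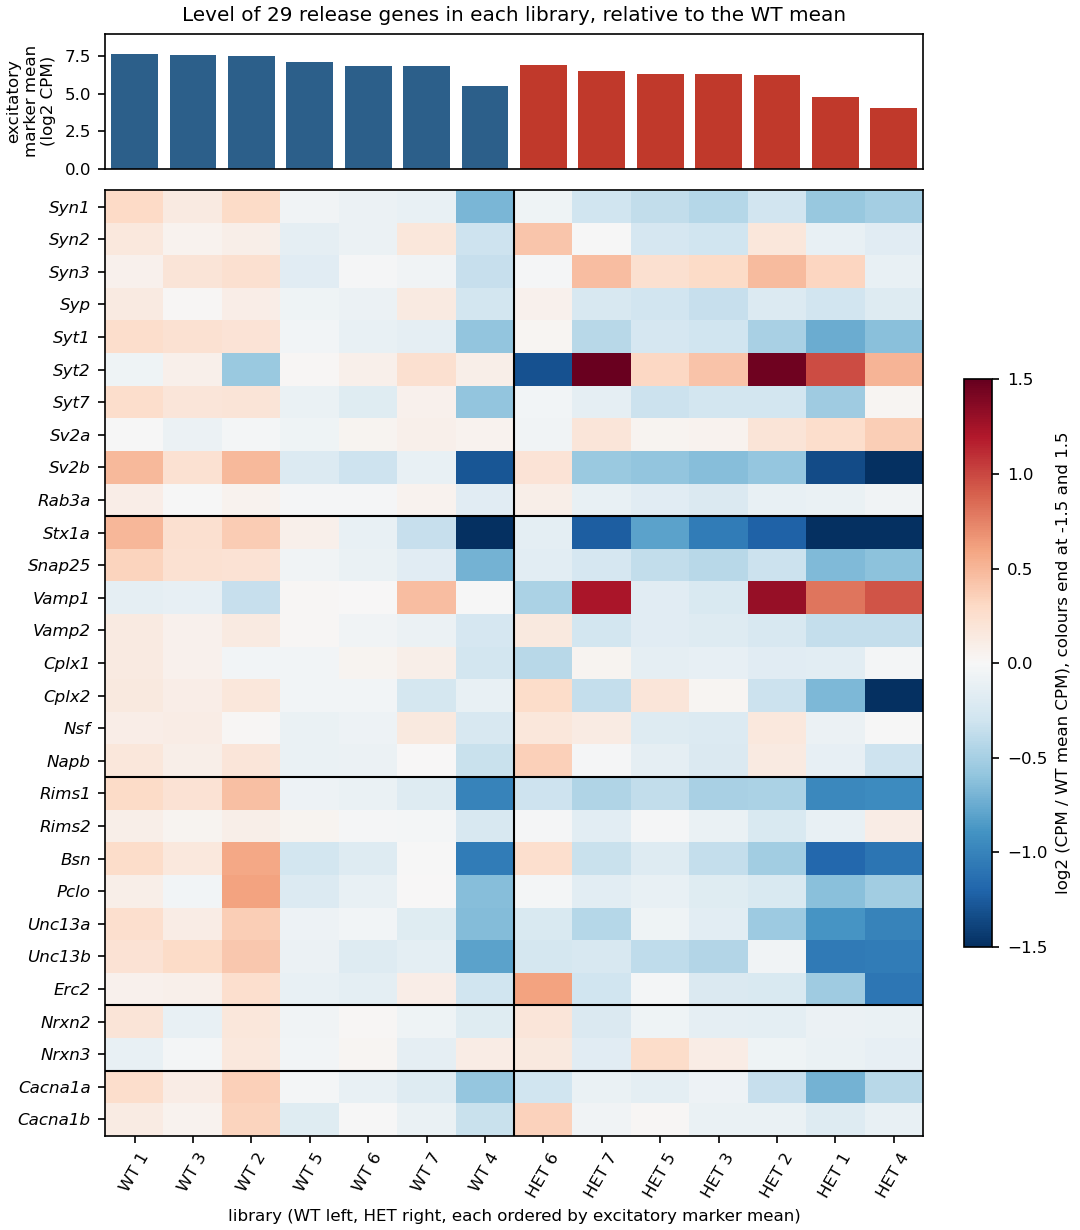
Level of the 29 genes (rows, in their functional groups) in each of the 14 libraries (columns), as log2 of CPM over the WT mean, with the mean log2 CPM of 8 excitatory markers above as bars. WT 4, HET 1 and HET 4 are the lowest in the excitatory markers and the bluest columns, with medians of -0.33, -0.36 and -0.31, while Syt2 and Vamp1 turn red in several HET libraries.

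Among the vesicle proteins, 7 of 10 had a log2 fold change below 0, with a median of -0.15. Syt1, the main calcium sensor of fast release (ENSMUSG00000035864, chromosome 10, 108497650 to 109010982, minus strand, GRCm38), ran from 970 to 1657 CPM in HET with a median of 1218. In WT it ran from 1079 to 1954 with a median of 1581. Of the HET libraries, 6 lay below the WT median and HET 6 above it, and the groups overlapped. The log2 fold change was -0.38 (SE 0.14, adjusted p 0.128 in edgeR). Syn1, which tethers vesicles to actin and to each other (ENSMUSG00000037217, chromosome X, 20860511 to 20921004, minus strand), ran from 500 to 711 CPM in HET around a median of 576. Its WT libraries ran from 461 to 914 around 717. All 7 HET libraries lay below the WT median, and WT 4 was lower than all of them. Its log2 fold change was -0.35 (SE 0.13, adjusted p 0.134).

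Syp, the membrane protein by which synaptic vesicles are most often stained, had 666 to 883 CPM in HET and 696 to 928 in WT, with medians of 718 and 858. Its log2 fold change was -0.21 (SE 0.08, adjusted p 0.140, edgeR). Sv2b, a vesicle glycoprotein of mostly glutamatergic neurons, varied more within each genotype, from 146 to 551 CPM in HET and, in WT, from 196 to 671. The HET libraries 1 and 4 were below every WT library, and WT 4 was the lowest WT library. Its log2 fold change was -0.63 (SE 0.29, adjusted p 0.223). The slow calcium sensor Syt7 (log2 fold change -0.21), the vesicle GTPase gene Rab3a (-0.09) and Syn2 (-0.02) had adjusted p-values of 0.319, 0.356 and 0.951 in edgeR.

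The other 3 vesicle genes had higher means in HET. Syt2, a fast calcium sensor (ENSMUSG00000026452, chromosome 1, 134646677 to 134762593, plus strand), ran from 31.8 to 219 CPM in HET with a median of 112. In WT it ran from 53.4 to 92.5 CPM with a median of 82.4. It was above the highest WT library in 6 of 7 HET libraries, and the seventh, HET 6, was the lowest of all 14. The log2 fold change was 0.77 (SE 0.31, 95% confidence interval 0.10 to 1.44, adjusted p 0.171 in edgeR). Syn3, the synapsin of early development, was above the highest WT library in 5 of 7 HET libraries, with 13.7 to 20.6 CPM in HET and 11.6 to 17.5 in WT. On the log2 scale the difference was 0.25 (SE 0.11, adjusted p 0.194). Sv2a, the broadly expressed vesicle glycoprotein that binds the drug levetiracetam, had 552 to 739 CPM in HET and 540 to 602 in WT. The difference was 0.16 on the log2 scale (SE 0.06, adjusted p 0.176 in edgeR), and 4 HET libraries were above every WT library.

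Among the SNAREs and their helpers, Stx1a had the smallest adjusted p and the largest fold change of the 29 genes. It encodes syntaxin-1A, a plasma membrane SNARE (ENSMUSG00000007207, chromosome 5, 135023482 to 135051100, plus strand). In HET its lowest and highest libraries stood at 51.0 and 218 CPM around a median of 105, and in WT it ran from 81.8 to 343 CPM with a median of 255. All HET libraries lay below the WT median, the highest being HET 6, and WT 4 lay at 81.8 CPM, where the next WT library stood at 191. Means were 115 ± 54.3 CPM in HET and 242 ± 87.9 in WT (SD, n = 7 each). On the log2 scale the difference was -1.08 (SE 0.33, 95% confidence interval -1.78 to -0.38, adjusted p 0.0911 in edgeR).

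Snap25, the partner of syntaxin in the plasma membrane, had 1614 to 2300 CPM in HET around a median of 1974 and 1568 to 3216 CPM in WT around 2464. Its 7 HET libraries all lay below the WT median, and WT 4 was the lowest library of all. The log2 fold change was -0.39 (SE 0.14, adjusted p 0.120, edgeR). Vamp2, the main vesicle SNARE of the forebrain, had 982 to 1394 CPM in HET and 1054 to 1383 in WT, with HET 6 as the highest library of all 14 and the other 6 HET libraries below the WT median of 1274. The difference on the log2 scale was -0.20 (SE 0.08, adjusted p 0.186). Vamp1 went the other way, with 4 HET libraries (HET 1, 2, 4 and 7) above every WT library and HET 6 below every WT library. It ran from 132 to 453 CPM in HET around a median of 320 and from 144 to 252 in WT around 183. Its log2 fold change was 0.64 (SE 0.27, adjusted p 0.182).

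The complexins, which clamp and promote fusion, differed in spread. Cplx2 lay between 941 and 1807 CPM in 6 HET libraries and at 402 CPM in HET 4, against 1242 to 1685 in WT, so that its log2 fold change of -0.26 had an SE of 0.24 (adjusted p 0.549, edgeR). Cplx1 ran from 495 to 680 CPM in HET and from 549 to 724 in WT (log2 fold change -0.14, adjusted p 0.293). Nsf, the ATPase that takes spent SNARE bundles apart, had 944 ± 105 CPM in HET and 944 ± 89.9 in WT, and a 95% confidence interval of the log2 fold change from -0.17 to 0.17. Napb, its adaptor, had an interval from -0.25 to 0.19.

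All 7 active zone genes had log2 fold changes below 0, with a median of -0.41. Rims1, a scaffold that ties vesicles to calcium channels (ENSMUSG00000041670, chromosome 1, 22286251 to 22805994, minus strand), ran from 134 to 212 CPM in HET with a median of 190. In WT it ran from 131 to 360 CPM with a median of 249. Every HET library lay below 6 of the 7 WT libraries, of which the lowest stood at 229 CPM, and WT 4 lay at 131 CPM, below them all. Of the 29 genes it alone had every HET library below the lowest WT library other than WT 4, which held for 1.96% of all genes tested, wherever WT 4 lay. The log2 fold change was -0.55 (SE 0.18, 95% confidence interval -0.94 to -0.16, adjusted p 0.110 in edgeR). Rims2 differed little, with 104 to 132 CPM in HET and 103 to 130 in WT (log2 fold change -0.07, adjusted p 0.535).

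Unc13a and Unc13b encode Munc13-1 and Munc13-2, which prime vesicles for fusion. Unc13a ran from 221 to 423 CPM in HET and from 281 to 573 in WT, with medians of 330 and 432. All HET libraries were below its WT median, and the log2 fold change was -0.43 (SE 0.17, adjusted p 0.154, edgeR). Unc13b ran from 26.7 to 53.8 CPM in HET and from 31.9 to 73.7 in WT (log2 fold change -0.45, SE 0.19, adjusted p 0.184). The giant scaffolds Bsn and Pclo had log2 fold changes of -0.41 (SE 0.25, adjusted p 0.333) and -0.25 (SE 0.15, adjusted p 0.339), and Erc2, an ELKS protein, had -0.18 (SE 0.19, adjusted p 0.620). Bsn varied widely within both genotypes, from 244 to 656 CPM in HET and, in WT, from 265 to 819.

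The neurexins, presynaptic adhesion receptors, stayed near 0. For Nrxn2 the log2 fold change was -0.08 (95% confidence interval -0.23 to 0.08) and for Nrxn3 0.02 (-0.14 to 0.18). Of the calcium channels, Cacna1a, the P/Q-type pore, ran from 104 to 162 CPM in HET and from 114 to 218 in WT, with all HET libraries below the WT median of 167. On the log2 scale it differed by -0.28 (SE 0.13, adjusted p 0.221 in edgeR). Cacna1b, the N-type pore, stood at 127 ± 16.9 CPM in HET and 129 ± 19.4 in WT (SD), with an interval of the log2 fold change from -0.23 to 0.19.

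Which genes passed the threshold rested on single libraries. Without WT 4, edgeR called 7 of the 29, all lower in HET: Rims1, Snap25, Stx1a, Syn1, Syp, Syt1 and Unc13a. Of all genes, 4.83% were then called lower and 4.34% higher. The log2 fold change then came to -1.23 for Stx1a (adjusted p 0.0203) and -0.67 for Rims1 (adjusted p 0.0123). Without HET 6, 5 were called, Stx1a, Syp, Syt1 and Vamp2 lower and Syt2 higher, against 2.77% of all genes lower and 3.32% higher. For Syt2 the value was then 0.94 (adjusted p 0.0305). Leaving out any other single library called none. Without HET 1, HET 4 and WT 4 together, a choice made after seeing the data, Rims1, Snap25, Stx1a and Syn1 were called lower, against 2.35% of all genes lower and 1.43% higher.

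The other tools, fitted to all 14 libraries, differed from edgeR in their counts. DESeq2 called Stx1a (adjusted p 0.0104) and Rims1 (adjusted p 0.0358) lower. With limma-voom and sample weights, Rims1, Snap25, Stx1a, Syn1, Syp, Syt1 and Vamp2 were called lower and Syn3 and Syt2 higher.

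**Figure D3:**
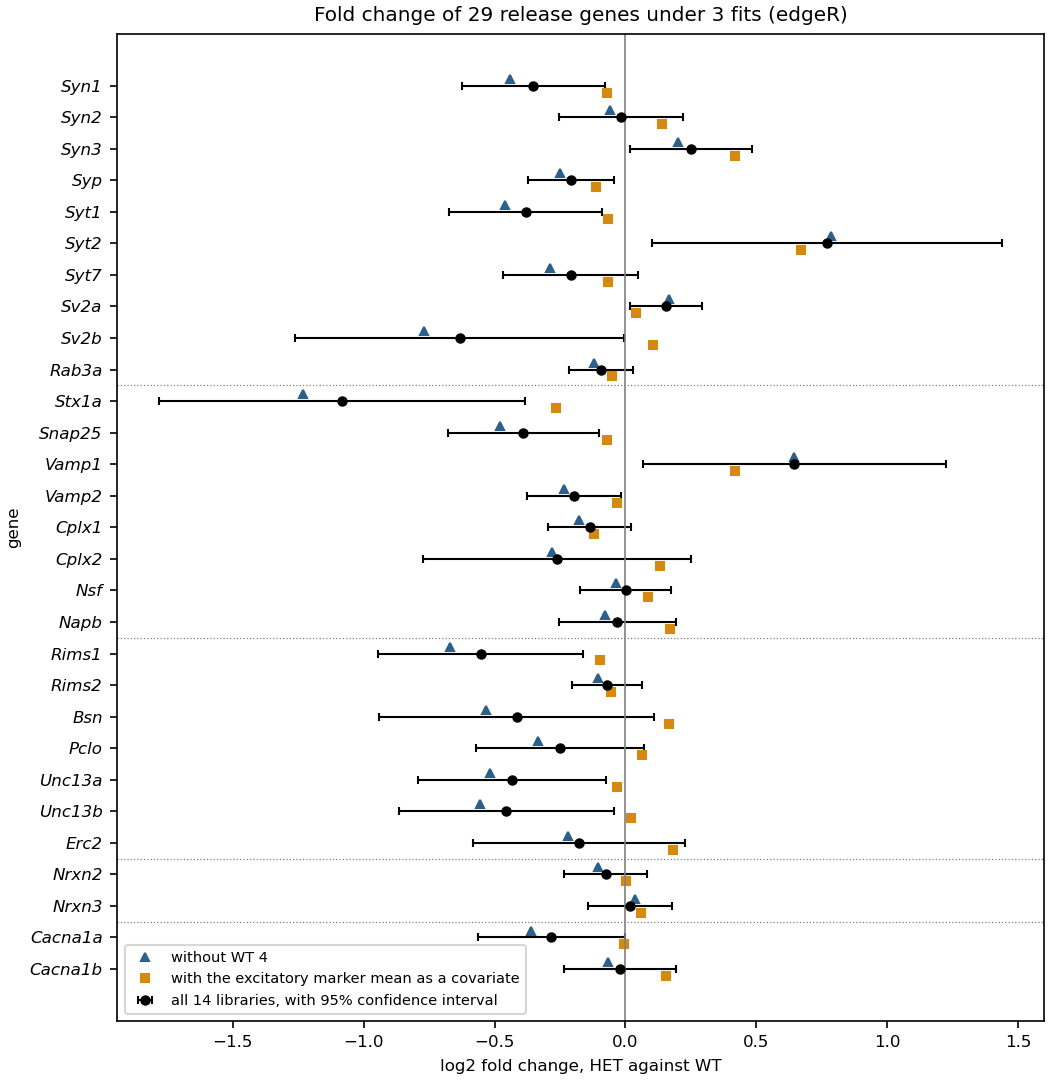
Log2 fold change, HET against WT, of each of the 29 genes in 3 edgeR fits. Black circles with 95% confidence intervals use all 14 libraries, blue triangles leave out WT 4 and orange squares add the excitatory marker mean as a covariate. For Stx1a the value is -1.08, -1.23 and -0.27 in turn, and most orange squares lie near 0.

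Stx1a, Rims1, Snap25 and Syt1 were low and high in much the same libraries as the markers of excitatory neurons. Beyond the fits with marker covariates given below, the part of tissue content in these results was not tested. All 8 excitatory markers had log2 fold changes below 0 (median -0.91, none called in edgeR), all 8 thalamic markers above 0 (median 1.12, none called). Mean log2 CPM of the excitatory markers was 4.03 in HET 4, 4.82 in HET 1 and 5.51 in WT 4, the 3 libraries lowest in Stx1a, Rims1, Snap25 and Syt1. It was 6.89 in HET 6, which had the highest HET value of those 4 genes, and 7.67 in WT 1, which had the highest WT value of Stx1a, Snap25 and Syt1. Syt2 and Vamp1 did not follow this order, and HET 2 and HET 7, with excitatory means of 6.23 and 6.50, had their highest levels. Sv2a ran against the order in HET, highest in HET 4 (739 CPM) and HET 1 (686 CPM) and lowest in HET 6 (552 CPM). In WT it was highest in WT 7 (602 CPM), with WT 4 at 593 CPM.

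Some other marker lists had log2 fold changes all of 1 sign, with no member called in edgeR. All 6 microglial markers had log2 fold changes below 0 (median -0.21), their summed level was 232 to 333 CPM in HET and 298 to 346 in WT, and 5 HET libraries lay below every WT library. All 4 blood markers were below 0 (median -0.65), each at an unadjusted p under 0.05, with sums of 101 to 191 CPM in HET and 128 to 416 in WT. All 8 striatal markers were above 0 (median 0.33), with sums of 170 to 2364 CPM in HET and 183 to 1761 in WT, highest in HET 5, HET 3 and WT 4. All 6 oligodendrocyte markers were above 0 (median 0.15), with sums of 2182 to 9810 CPM in HET and 4276 to 7375 in WT, lowest in HET 6. No striatal or oligodendrocyte marker was at an unadjusted p under 0.05 in edgeR, and their signs were not stable. Without HET 5, 2 striatal markers were above 0 and 6 below. In the libraries labelled polyA RNA all 6 oligodendrocyte markers were below 0. The 7 markers of inhibitory neurons were mixed, with 3 above 0 and 4 below (median -0.13, none called in edgeR). Pvalb, of the parvalbumin interneurons, had -0.13 (adjusted p 0.796 in edgeR). Gad1, the highest of the 7 in WT, had 0.15 (adjusted p 0.578). The part of the inhibitory, microglial, blood and oligodendrocyte markers in the values of the release genes was not tested.

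When the excitatory mean was added to the model, the median log2 fold change of the 29 genes was 0.02, with 16 values above 0 and 13 below, and 1 gene higher and none lower at an unadjusted p under 0.05, against 7.03% and 5.15% of all genes. None was called in edgeR. For Stx1a the log2 fold change in this fit was -0.27 (adjusted p 0.514), for Rims1 -0.10 (adjusted p 0.787) and for Snap25 -0.07 (adjusted p 0.815). Syt2 had 0.67 (adjusted p 0.547), Vamp1 0.42 (adjusted p 0.659), Syn3 0.42 (adjusted p 0.213) and Sv2a 0.04 (adjusted p 0.827). With the excitatory, striatal and thalamic means as covariates in edgeR, Syt2 had 0.50 (adjusted p 0.594) and Vamp1 0.25 (adjusted p 0.633). Syn3 had 0.41 there (adjusted p 0.151). The excitatory markers themselves had lower means in HET, so genotype and marker level are partly confounded in these fits. In the 10 libraries labelled polyA RNA, 3 of them HET, the median was -0.07 and no gene of the 29 was at an unadjusted p under 0.05, against 4.35% of all genes lower and 5.35% higher.

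**Figure D4:**
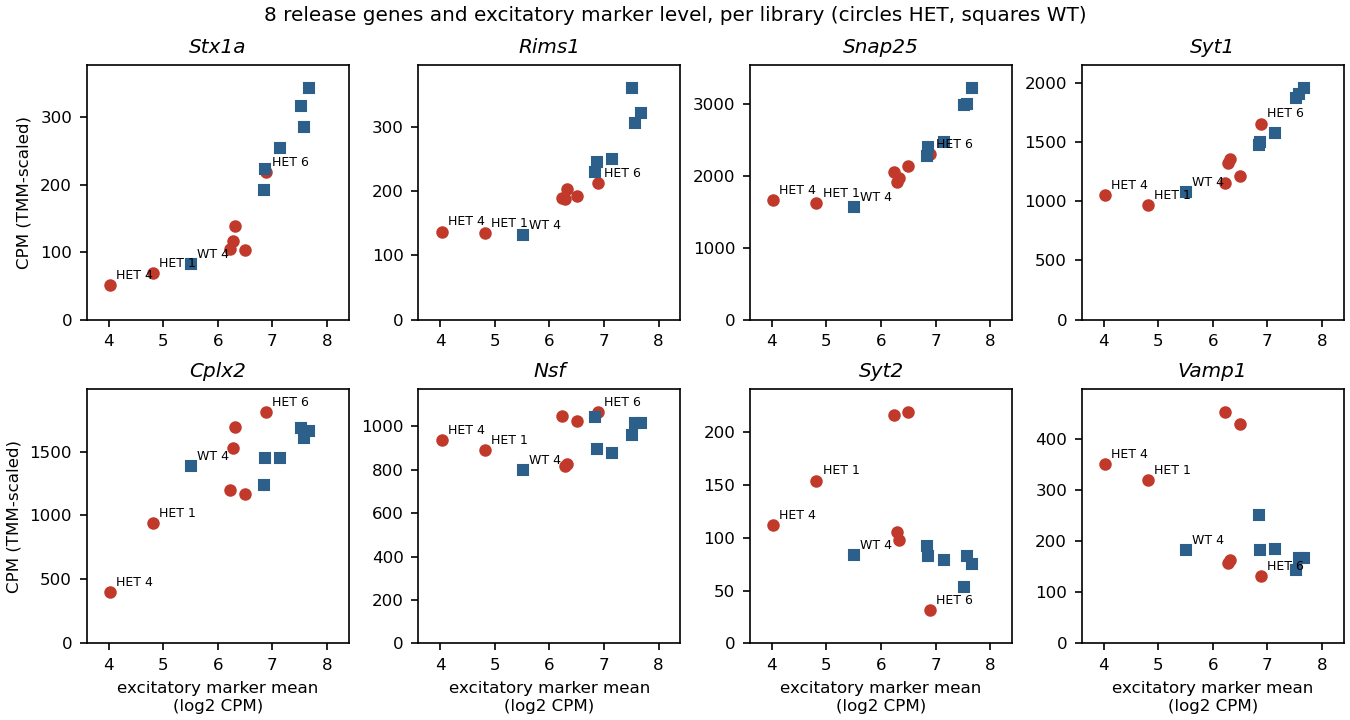
CPM of 8 release genes against the mean log2 CPM of 8 excitatory markers in the same library (red circles HET, blue squares WT, 14 libraries in each panel). Stx1a, Rims1, Snap25 and Syt1 climb along the axis in both genotypes from HET 4 and HET 1, at 4.03 and 4.82, to WT 1 at 7.67, Nsf stays level, and Syt2 and Vamp1 are highest in HET 2 and HET 7.

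Ratios between paralogs, taken within each library, ask whether the makeup of a family shifted. They were taken for 12 pairs, on the log2 scale of length-scaled levels, with no test, and the groups overlapped in all 12. WT 4 was the highest WT library for Syn3 to Syn1 (-7.21), Syt2 to Syt1 (-3.57) and Rims2 to Rims1 (-0.75). It was also highest for Syn2 to Syn1, Pclo to Bsn, Nrxn3 to Nrxn2 and Cacna1b to Cacna1a, and lowest for Sv2b to Sv2a (-2.45). WT 7 was highest for Vamp1 to Vamp2, Syt7 to Syt1 and Cplx1 to Cplx2. The part of tissue content in the ratios was not tested. Syn3 to Syn1 was -6.95 ± 0.29 in HET and -7.53 ± 0.18 in WT (SD, n = 7 each), and 6 of 7 HET libraries lay above the highest WT library. Syt2 to Syt1 was -3.30 ± 1.15 in HET and -4.24 ± 0.47 in WT, with 5 HET libraries above the highest WT library and HET 6 below the lowest. Vamp1 to Vamp2 was -3.50 ± 0.88 in HET and -4.21 ± 0.34 in WT, with 4 HET libraries above and HET 6 below. Sv2b to Sv2a was -2.01 ± 0.75 in HET and -1.21 ± 0.65 in WT, with HET 1 and HET 4 below the lowest WT library. Rims2 to Rims1 was -1.02 ± 0.32 in HET and -1.47 ± 0.37 in WT. Unc13b to Unc13a was the same in both to within the spread, at -3.87 ± 0.29 and -3.85 ± 0.12.

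The remaining 6 pairs had higher means in HET. Syn2 to Syn1 was -1.36 ± 0.16 in HET and -1.66 ± 0.22 in WT, with 3 HET libraries above the highest WT library, WT 4. Syt7 to Syt1 was -1.72 ± 0.25 in HET and -1.90 ± 0.09 in WT, with 4 HET libraries above every WT library. The calcium channel pores Cacna1b to Cacna1a stood at 0.17 ± 0.24 in HET and -0.08 ± 0.15 in WT, with 3 HET libraries above. Cplx1 to Cplx2 was 0.25 ± 0.82 in HET and -0.0047 ± 0.19 in WT, with HET 4 at 1.86 and 2 HET libraries below every WT library. Pclo to Bsn was -1.33 ± 0.29 in HET and -1.52 ± 0.21 in WT, and Nrxn3 to Nrxn2 -0.84 ± 0.14 and -0.93 ± 0.18.

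Other genes of vesicle release and retrieval were read from a list of 92, of which 91 matched and were tested. Of these, 3 were called in edgeR, against 0.97% of all genes. Cacnb2, an auxiliary calcium channel subunit, was higher at 54.6 ± 5.98 CPM in HET against 43.1 ± 3.69 in WT (log2 change 0.34, adjusted p 0.0461). Syt10, another synaptotagmin, rose from 5.19 ± 1.66 to 9.33 ± 1.54 CPM (0.85, adjusted p 0.0476). Napa, which encodes alpha-SNAP, the ubiquitous relative of Napb, fell from 248 ± 27.7 to 197 ± 12.4 CPM (-0.33, adjusted p 0.0476). The median log2 fold change of the 91 was -0.09, with 58 values below 0, against 46.7% of all genes. At an unadjusted p under 0.05, 18 were lower and 11 higher, against 10.4% and 11.8% of all genes. With the excitatory covariate the log2 fold change was 0.70 for Syt10 (adjusted p 0.220, edgeR), 0.22 for Cacnb2 (adjusted p 0.246) and -0.18 for Napa (adjusted p 0.259). With the 3 marker covariates it was 0.75, 0.22 and -0.18, and in the libraries labelled polyA RNA 0.87, 0.27 and -0.27. None of the 3 genes passed the threshold in these fits, while the directions were as in the fit to all libraries. Leaving out any 1 of HET 1, 2, 3, 4 and 7 or WT 1, 2, 3, 5 and 6 left none of the 91 called. Without WT 4, 15 of the 91 were called lower and 4 higher, against 4.83% and 4.34% of all genes.

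By sub-list, the genes next in p did not pass. The vesicle transporter-like gene Svop stood at a log2 fold change of -0.36 (adjusted p 0.0809, edgeR). Lin7b and Rimbp2, of the active zone, had -0.47 (adjusted p 0.0626) and -0.62 (adjusted p 0.0719). Dnm3, a dynamin of vesicle retrieval, had 0.45 (adjusted p 0.0539), and Pacsin1, which bends membrane in the same step, had -0.24 (adjusted p 0.114). The glutamate transporters split, with Slc17a6 (VGLUT2, typical of thalamic terminals) at 1.51 (adjusted p 0.129) and Slc17a7 (VGLUT1, typical of cortical neurons) at -0.86 (adjusted p 0.244). Both are also in the marker lists. Cbln1, which bridges neurexins to their partners, had 1.33 (adjusted p 0.130) and Ptprs -0.16 (adjusted p 0.275). Cacnb3 had -0.49 (adjusted p 0.142), and Snapin, a SNAP-25 binding protein, had 0.13 (adjusted p 0.221).

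The ATAC-seq lists, which give where a transposase could enter the genome, held 30862 peaks for HET (median width 423 bases) and 19272 for WT (median width 490 bases), on mm10. The lists carry no peak strength or depth, and each list is 1 set without replicates, so a peak in 1 list alone is a description. A peak within 1000 bases of the gene start was present for 24 of the 29 genes in HET and 24 in WT, and for 23 in both. Over all genes tested it was 63.6% in HET and 57.2% in WT. Among the 8791 genes in the same range of expression it was 83.0% in HET and 76.9% in WT.

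Stx1a had a promoter peak in the HET list alone, which 8.08% of all genes tested had. The peak lay on chr5:135023316-135023871, over the gene start and 216 bases of the window printed above, and the nearest peak of the WT list was 12110 bases away. Cplx2 had a peak at the start used here in the WT list alone, as did 1.62% of all genes tested (chr13:54371263-54371752). The nearest HET peak was 1346 bases off. Within 1000 bases of its RefSeq start, which lies further upstream (window chr13:54302306-54302605), both lists held a peak. Rims1 had a peak just upstream of its start in both lists, on chr1:22806023-22806796 in HET and chr1:22806268-22806892 in WT. The window of Syn1 with its RE1 arm and its cAMP response element lay wholly under a peak in both lists. Syt2, Vamp2, Bsn and Cacna1a had no promoter peak in either list. For Syt2 the nearest peak was 8214 bases away in HET and 89498 in WT, and its printed window lay under none.

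**Figure D5:**
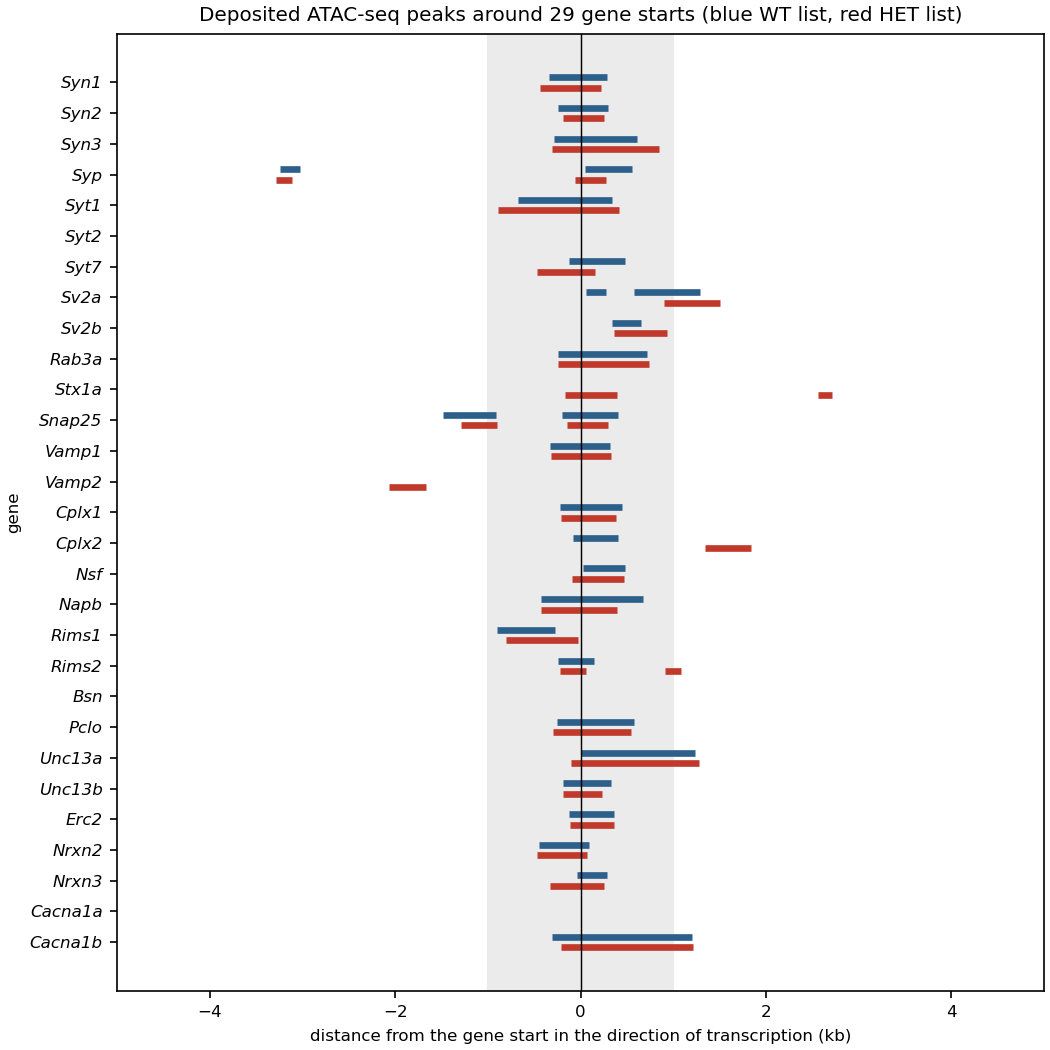
Deposited ATAC-seq peaks within 5 kb of the start of each of the 29 genes, drawn by distance in the direction of transcription (kb), with the WT list in blue above the HET list in red and the promoter window of 1000 bases each way in grey. Most genes have overlapping peaks of both lists at the start, Stx1a has a HET peak alone there and Cplx2 a WT peak alone. Near the RefSeq start of Cplx2, further upstream and not drawn, both lists hold a peak.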

How the data were processed

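RNA was measured in 7 HET and 7 WT frontal cortex libraries. The deposited RNA tables hold raw, unscaled counts, 1 value per gene, made with featureCounts 2.0.1 on the Ensembl release 102 annotation of GRCm38 with strand ignored, per the file headers. STAR, Trimmomatic, Subread and DESeq2 were named for RNA, and Bowtie2 2.4.4, SAMtools 1.9, bcl2fastq 2.20, MACS3, deepTools and edgeR for ATAC-seq, per the submitters' processing notes. The deposited ATAC-seq lists give peak positions (chromosome, start and end), 1 list per genotype, and no other value.

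Here, genes were filtered with filterByExpr, scaled by TMM and tested for HET against WT with edgeR 4.0.16 (quasi-likelihood, robust, two-sided) over 18050 genes. P-values were adjusted by Benjamini-Hochberg, with a threshold of 0.05. The script was tested on simulated data. CPM are TMM-scaled. Levels per kb use the deposited exon lengths. Promoter peaks overlap 1000 bases on either side of the most upstream exon base. Alternatives were DESeq2 1.42.0, its size factors, limma 3.58.1 voom with sample weights, other filters, marker means as covariates, the polyA label, a replicate block and each library left out. The other release genes named were those called and the 2 of smallest p in each sub-list, and for markers the member with the highest WT level. Pvalb was named in addition. The members and lists were chosen with earlier results of these data known. Samples for Hi-C, and those labelled PAT or Control, were not analysed here.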

Additional observations from a re-analysis of the deposited data

Results flagged for a closer look

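In 58 groups of 7 libraries (29 genes in 2 genotypes), 6 held a library far from the rest by Dixon's criterion, which chance gives in about 1 in 20 independent groups. These 58 groups share the same libraries and are not independent, so their count cannot be set against that rate. Of the 6, 4 were HET 6 as the highest HET library: Syp at 883 CPM (next 738), Vamp2 at 1394 CPM (next 1120), Nrxn2 at 530 CPM (next 447) and Cacna1b at 163 CPM (next 130). HET 6 also had the highest excitatory marker mean in HET, 6.89 log2 CPM, and its part in these values was not tested. Rims2 stood apart in WT 4, its lowest WT library, at 103 CPM (next 119). Vamp1 stood apart in WT 7, its highest WT library, at 252 CPM (next 186).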

How the results depend on the processing

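Calls depended on the tool and on single libraries more than directions did. Over all genes, 175 were called in edgeR, 1513 with DESeq2, 1886 with limma-voom, 106 without a filter, 10 with the replicate block, 12 with the excitatory covariate, 24 with 3 marker covariates, 4 in libraries labelled polyA RNA, 692 without HET 1, HET 4 and WT 4, and 11 to 1672 with 1 library left out. For the 29 release genes these counts were 0, then 2 with DESeq2, 9 with limma-voom, 4 without those 3 libraries, 0 to 7 with 1 library left out, and 0 under each of the other settings. For the other release genes they were 3, then 11 with DESeq2, 19 with limma-voom, 10 without the 3 libraries, 0 to 19 with 1 library left out, and 0 with the replicate block, with the excitatory or the 3 marker covariates and in libraries labelled polyA RNA. HET and WT libraries of the same number did not deviate together (correlations from -0.28 to 0.33), so the numbers were not taken as pairs. The block moved no release gene past the threshold.

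Signs turned for the genes named next. With the excitatory covariate the log2 fold change was 0.14 for Syn2, 0.10 for Sv2b, 0.13 for Cplx2, 0.17 for Napb, 0.17 for Bsn, 0.0622 for Pclo, 0.0218 for Unc13b, 0.18 for Erc2, 0.00067 for Nrxn2 and 0.15 for Cacna1b. With excitatory, striatal and thalamic covariates it was 0.13 for Syn2, 0.10 for Sv2b, 0.16 for Cplx2, 0.16 for Napb, 0.17 for Bsn, 0.0658 for Pclo, 0.0174 for Unc13b, 0.18 for Erc2 and 0.15 for Cacna1b. In libraries labelled polyA RNA it was 0.0745 for Syn2, 0.0509 for Cplx2, 0.0754 for Napb, 0.14 for Erc2 and 0.11 for Cacna1b. For Nsf it was -0.0053 with DESeq2, -0.0053 with its size factors, -0.0034 without a filter, -0.0016 with the replicate block and -0.0172 without the 3 libraries. Nrxn3 had -0.0050 with limma-voom. With 1 library left out the value ran from -0.10 to 0.0262 for Syn2, -0.0359 to 0.0321 for Nsf, -0.11 to 0.0106 for Napb, -0.0281 to 0.0474 for Nrxn3 and -0.0905 to 0.0428 for Cacna1b. The cause was not tested. The promoter peak counts of the 29 genes lay between 19 and 26 over both lists under other windows, starts and overlaps, where RefSeq starts cover 22 genes. The lowest level of any of the 29 genes was 11.6 CPM (Syn3 in WT 4), in libraries of at least 32814841 counts.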
